A study of Mus musculus with 9 samples.

Results

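The transcription factor genes described here are 10 regulators of effector CD8+ T cells, Tbx21, Eomes, Prdm1, Id2, Zeb2, Bhlhe40, Batf, Runx3, Rora and Ikzf2. They were chosen by name, and all 10 were found among the 55471 gene identifiers of the count tables and were among the 14918 genes that passed the filter on low counts. RNA was measured in mouse OT-I CD8+ T cells, whose T cell receptor recognises an ovalbumin peptide, recovered from host spleens 7 days after infection with LmOVA, Listeria monocytogenes bacteria engineered to carry that antigen. The control group (Bdh1-WT;shCtrl, n = 4) carried intact Bdh1 and a hairpin against firefly luciferase, and the DKO group (Bdh1-KO;shOxct1, n = 5) lacked Bdh1 and carried a hairpin against Oxct1. BDH1 and OXCT1 are mitochondrial enzymes of ketone body oxidation, and the comparison addresses what their loss does to gene expression in effector cells. Cells of both groups were activated in culture with antibodies to CD3 and CD28 and with IL-2, transduced with a hairpin vector marked by Ametrine, sorted, and transferred into C57BL/6 hosts carrying CD45.1. They were sorted again on CD45.2 and Ametrine, so both groups share the transduction and the culture, and the hairpin lowers Oxct1 without deleting it. The sources used here give neither the age of the mice nor the allele by which Bdh1 was lost. Whether the numbered replicates came from separate hosts is likewise not stated, so the p-values measure the spread between these samples, which may be technical.

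In responding CD8+ T cells, the T-box factors T-bet (from Tbx21) and Eomes, the repressors Blimp-1 (Prdm1) and Zeb2, and Id2, an inhibitor of E proteins, are known to divide cells between short-lived effector and memory fates. T-bet, Blimp-1, Zeb2 and Id2 are associated with terminal effector cells, and Eomes with the memory fate. Runx3 maintains CD8 lineage identity and cytotoxic genes, Batf and Bhlhe40 act downstream of receptor and cytokine signals, and Rora and Ikzf2 (Helios) are expressed in subsets of activated T cells.

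The libraries held between 45205993 and 59853080 reads assigned to genes. The targeted genes were lower in DKO as labelled, Oxct1 at a mean counts-per-million (CPM) value of 5.16 against 63.2, and Bdh1 at 10.6 CPM against 30.5. Control replicate 1 stood apart, with 16.7% unmapped reads against 10.3% to 12.3% in the other libraries. On the first principal component it lay at -79.1, with the other 8 libraries between -7.25 and 23.5. Control replicate 3 stood apart on the second component, at -70.2 against -5.59 to 20.2 for the other 8. Markers of the labelled cell type were high in every library, Cd3e at 1036 CPM or more and Cd8a at 663 CPM or more. Summed over 8 such markers, levels were 8685 to 11380 CPM in the control and 8531 to 9138 CPM in the DKO libraries. Cd8b1 was called lower in DKO. Cd3e was lower without overlap, at 1101 to 1261 against 1036 to 1092 CPM, and did not pass the test (edgeR adjusted p = 0.240). Markers of other cell types gave summed levels of 152 to 184 CPM in the control libraries against 146 to 172 CPM in the DKO libraries for NK cells, led by Cd160, which activated T cells also express. They gave 151 to 223 against 169 to 199.97 CPM for regulatory T cells, 33.5 to 39.6 against 35.4 to 47.4 CPM for CD4 T cells and 326 to 487 against 405 to 448 CPM for gamma-delta T cells. Summed B cell markers ranged from 187 to 271 against 195 to 215 CPM, plasma cell markers, led by Xbp1, from 124 to 134 against 122 to 134 CPM, and erythroid and platelet markers from 10.96 to 38.3 against 16.1 to 54.3 CPM. Summed myeloid and dendritic cell markers were 202 to 225 against 141 to 165 CPM, with no overlap; 9 of these 13 markers exceeded 1 CPM, and Ctss and Cd68 were called lower. Within that list Lyz2 went the other way, at 2.43 CPM in control and 5.85 in DKO on average, as did Cd74 (5.87 and 10.5) and Csf1r (1.84 and 2.37), without passing the test. Their part in the results below was not tested. Sdc1 of plasma cells was called higher, with 0 reads over the 4 controls and 52 over the 5 DKO libraries. Among other defining markers, Pax5 of B cells was at 0 in every library, Ncr1 of NK cells had at most 12 reads in a library and Foxp3 of regulatory T cells at most 12.

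Of the 10 genes, Eomes alone passed the test across all genes (edgeR's quasi-likelihood test, Benjamini-Hochberg adjusted p under 0.05), and it was lower in DKO. That is 1 of 10, where 422 of 14918 tested genes (2.83%) were called in either direction and 1.51% were called lower. Eomes and Runx3 were the 2 of 10 genes whose CPM ranges did not overlap between the groups, against 8.71% of all tested genes. This count was 4 without control replicate 3 or without DKO replicate 2. Leaving out a library can only keep or raise such a count, and the share of all genes was not computed for those settings. An unadjusted p under 0.05 was reached by 5 of 10, Tbx21, Eomes, Id2, Runx3 and Ikzf2, against 16.0% of all genes. The median log2 fold change of the 10, DKO over control, was 0.06, with 6 genes higher and 4 lower, beside a median of -0.01 over all tested genes. With 1 library left out, the 422 called genes became 749 (control replicate 1), 187 (control replicate 4), 179, 280, 180, 221 or 228 (DKO replicates 1 to 5 in turn), and moved less for the other 2 controls. Without control replicate 1, Eomes and Runx3 were called, 2 of 10 against 4.93% of all genes. In bulk samples, fewer cells expressing a gene and less RNA per cell cannot be told apart, which holds for every level given here.

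**Figure D1:**
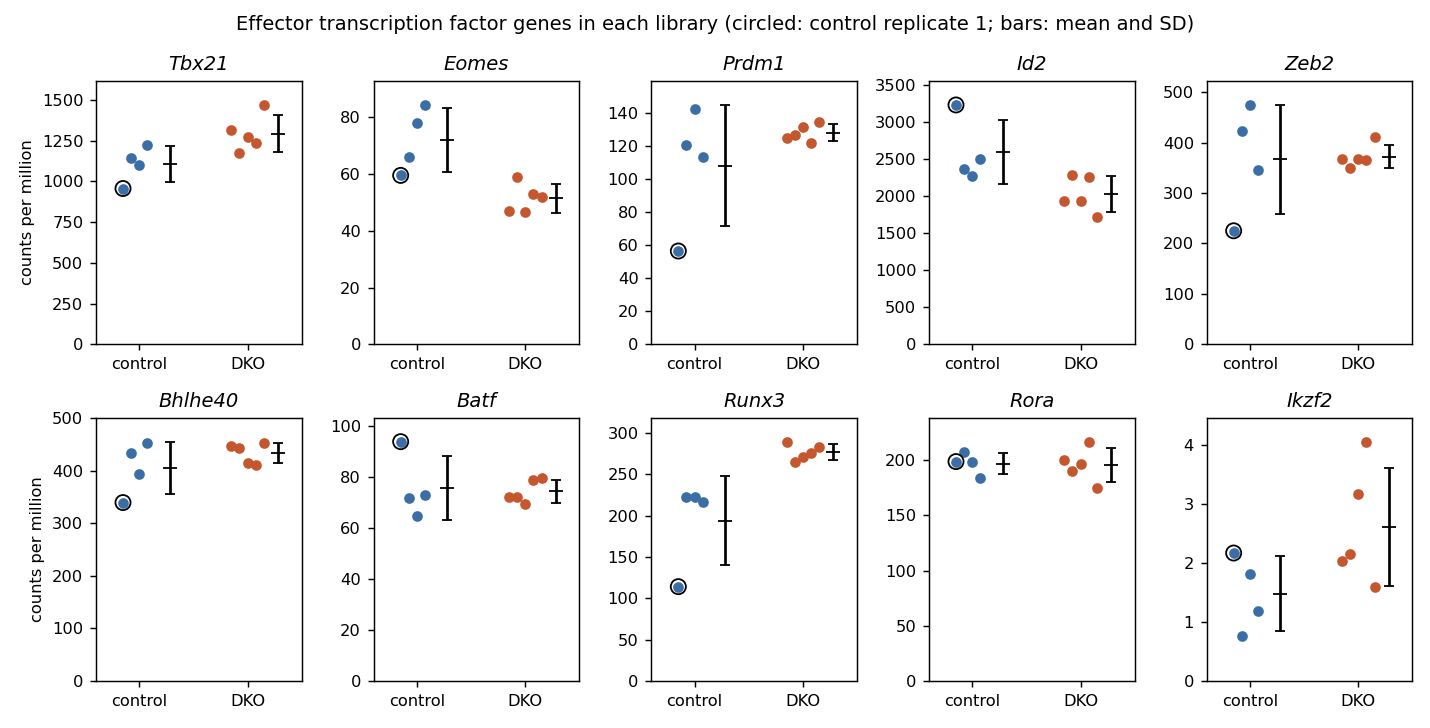
CPM (y axis, from 0) of each of the 10 genes in every control (n = 4) and DKO (n = 5) library, with the group mean and SD as bars and control replicate 1 circled. Eomes and Runx3 show no overlap between the groups, and the circled library was the lowest of all 9 for Tbx21, Prdm1, Zeb2, Bhlhe40 and Runx3 and the highest for Id2 and Batf.

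Of the T-box genes, Eomes fell in DKO, while Tbx21 was higher on average and did not pass the test. Eomes, on the + strand of chromosome 9 (118478212 to 118486132 in the GENCODE M21 annotation of GRCm38, used for all genes), encodes eomesodermin, which supports expression of the IL-2 receptor beta chain and memory cell survival. It measured 59.6, 66.0, 78.0 and 84.4 CPM in control replicates 1 to 4 and 46.9, 59.0, 46.5, 52.9 and 52.0 CPM in DKO replicates 1 to 5. Every DKO library was below every control library, although DKO replicate 2 at 59.0 CPM came close to control replicate 1 at 59.6 CPM. The means were 72.0 ± 11.3 CPM (SD, n = 4) and 51.5 ± 5.12 CPM (SD, n = 5), so the DKO level was 0.715 of the control level. The log2 fold change was -0.48 with a standard error of 0.12 (95% interval -0.74 to -0.23, edgeR adjusted p = 0.0497). That adjusted p lay next to the threshold, and of the 9 fits with 1 library left out, only that without control replicate 1 kept the call (log2 fold change -0.58, edgeR adjusted p = 0.00760). The other 8 gave edgeR adjusted p between 0.0543 and 0.142. Eomes also missed the threshold in edgeR with DESeq2 size factors (adjusted p = 0.0512) and without the filter on low counts (adjusted p = 0.0607). DESeq2's Wald test gave an adjusted p of 0.00429 and limma-voom 0.00899. In 1 set of simulated data with 200 changed genes, 19.1% of DESeq2's calls were false, against 2.04% for edgeR and 2.02% for limma-voom. The simulated libraries held no outlying sample such as control replicate 1, so these rates need not hold for the measured data. There edgeR recovered 57% of 2-fold and 39% of 1.5-fold changes, so a gene that did not pass may still differ. Of the exon bases of Eomes, 2.84% overlap Gm33460 on the other strand, and since the counts do not use strand, reads there cannot be assigned to either gene. Counting each strand separately and summing raised its counts 1.15-fold and gave an edgeR adjusted p of 0.0371. Zeb2, Bhlhe40, Rora and Ikzf2 share between 0.627% and 3.30% of their exon bases with other genes. Summing the strands raised their counts 1.06-, 1.09-, 1.09- and 1.02-fold, so their counts are uncertain by more than the share of bases.

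Tbx21, on the - strand of chromosome 11 (97098071 to 97115331), encodes T-bet, which drives interferon-gamma production and terminal effector differentiation. Its values were 956, 1145, 1101 and 1226 CPM in control replicates 1 to 4 and 1317, 1174, 1271, 1235 and 1469 CPM in DKO replicates 1 to 5. The groups overlapped, because control replicate 4 exceeded DKO replicate 2. The means were 1107 ± 113 CPM (SD, n = 4) and 1293 ± 111 CPM (SD, n = 5), a log2 fold change of 0.22 with a 95% interval of 0.03 to 0.42 (edgeR adjusted p = 0.253). In none of the 9 fits with 1 library left out did Tbx21 pass (edgeR adjusted p between 0.203 and 0.463).

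The ratio of Tbx21 to Eomes within a library does not depend on library scaling, and it separated the groups. On the log2 scale it was 3.95 ± 0.14 (SD, n = 4) in control and 4.65 ± 0.22 (SD, n = 5) in DKO, or 15.5 against 25.4 CPM of Tbx21 for each CPM of Eomes. It was higher in 5 of 5 DKO libraries than in any control library, a difference of 0.70 (exact two-sided permutation test, p = 0.0159, the smallest p this design allows, and 0.0317 after Benjamini-Hochberg adjustment over 6 ratios). The ratio rests on the same Eomes counts as the fold change above and is not a separate measurement of it. The 6 pairs were chosen with earlier results of these data known, so the p-values of the ratios are descriptions. With 1 library left out, the difference ranged from 0.66 to 0.79, with exact permutation p at the smallest value each such design allows (0.0286 or 0.0357) and adjusted p between 0.0571 and 0.0714.

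The RefSeq promoter windows of the T-box genes, 250 bases before each annotated start (GRCm38.p6), are shown because Eomes was the gene that passed the test and Tbx21 is the relative it was set against. That of Tbx21 lies at chr11:97115332-97115581 (- strand) and that of Eomes at chr9:118477939-118478188 (+ strand), each written 5′ to 3′ along its gene. Capitals mark matches, on either strand, to 8 short motifs known for factors among the 10: AGGTGT for T-box factors, CAGGTG for Zeb and E proteins, CACGTG for Bhlhe40, TGTGGT for Runx, TGANTCA for Batf with Jun, AGGTCA for Rora, TGGGAA for the Ikaros family and GTGAAAG for Prdm1. The T-box and Zeb motifs share AGGTG and so can overlap.
Tbx21: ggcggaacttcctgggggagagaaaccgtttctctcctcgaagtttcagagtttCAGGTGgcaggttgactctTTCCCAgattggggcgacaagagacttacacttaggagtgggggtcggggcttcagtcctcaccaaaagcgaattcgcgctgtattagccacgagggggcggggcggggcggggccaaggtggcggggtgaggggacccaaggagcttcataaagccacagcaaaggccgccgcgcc
Eomes: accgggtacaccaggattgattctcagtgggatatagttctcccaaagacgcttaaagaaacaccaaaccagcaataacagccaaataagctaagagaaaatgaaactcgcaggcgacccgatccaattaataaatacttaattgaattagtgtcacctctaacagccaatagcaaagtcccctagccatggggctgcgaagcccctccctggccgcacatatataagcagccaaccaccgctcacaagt
The Tbx21 window held 1 CAGGTG, 196 bases before the start, and 1 TGGGAA, read as TTCCCA, 177 bases before it, and the Eomes window held no match to any of the 8. Among 32851 mouse promoter windows of the same length, 17.2% held CAGGTG, 21.6% TGGGAA, 14.0% TGTGGT, 14.0% AGGTCA, 11.8% AGGTGT, 6.75% TGANTCA, 6.02% CACGTG and 3.57% GTGAAAG. A match is a description of these letters and was not tested for binding.

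**Figure D2:**
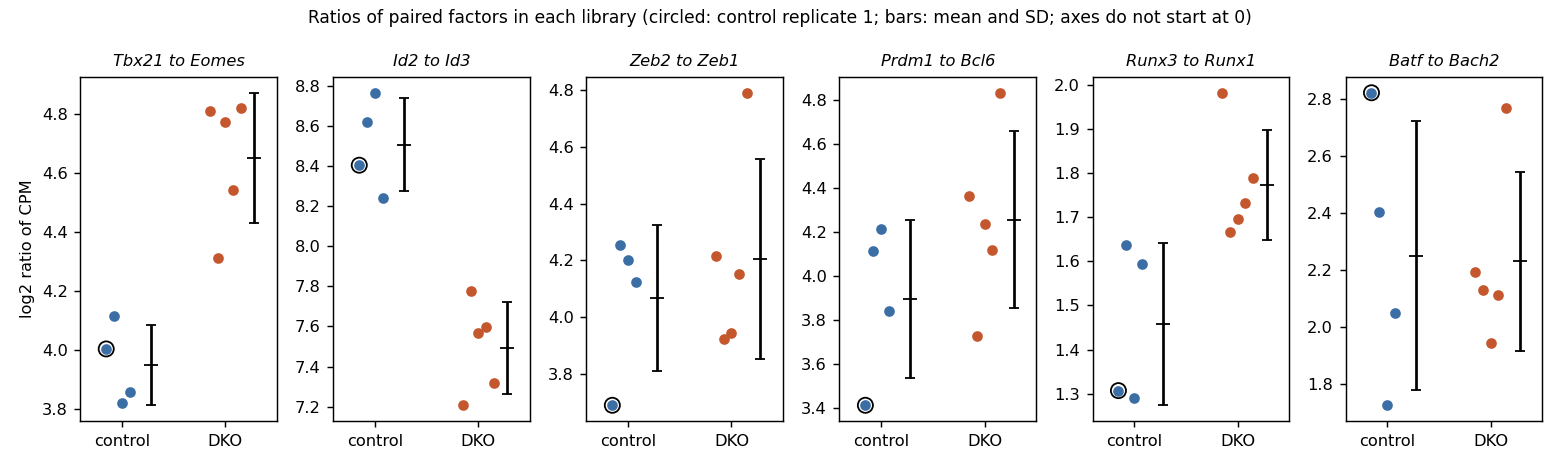
Log2 ratio of CPM (y axis, not starting at 0) of 6 pairs of factors in each control (n = 4) and DKO (n = 5) library, with the mean and SD as bars and control replicate 1 circled. The groups do not overlap for Tbx21 to Eomes, Id2 to Id3 and Runx3 to Runx1, and they overlap for Zeb2 to Zeb1, Prdm1 to Bcl6 and Batf to Bach2.

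Runx3 was higher in all DKO libraries, but its fold change passed edgeR's test only after control replicate 1 was left out or 1 surrogate variable was added. Runx3, on the + strand of chromosome 4 (135120652 to 135177990), silences Cd4 and opens cytotoxic gene loci in CD8 T cells. It measured 114, 223, 223 and 216 CPM in control replicates 1 to 4 and 289.7, 265, 271, 276 and 283 CPM in DKO replicates 1 to 5. The lowest DKO library lay above every control library, and control replicate 1 lay far below the other 3 controls. The means were 194 ± 53.4 CPM (SD, n = 4) and 277 ± 9.68 CPM (SD, n = 5), a ratio of 1.43, with a log2 fold change of 0.51 (SE 0.17, 95% interval 0.15 to 0.88, edgeR adjusted p = 0.147). Without control replicate 1 the log2 fold change was 0.31 (SE 0.05, edgeR adjusted p = 0.00627), a smaller difference with a smaller error. The other 8 fits with 1 library left out gave edgeR adjusted p between 0.142 and 0.284. Limma-voom, which weights each of the 9 libraries by its quality, gave an adjusted p of 0.0193, edgeR with 1 surrogate variable gave 0.00409 and DESeq2's Wald test gave 0.0543.

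Runx3 has 2 RefSeq start sites in the table used. The window upstream of the first, at chr4:135120395-135120644 (+ strand, GRCm38.p6), is shown because it held 4 motif matches, 2 of them to the motif of its own family. Capitals mark the motifs as above, with the Runx motif read on the other strand as ACCACA.
Runx3: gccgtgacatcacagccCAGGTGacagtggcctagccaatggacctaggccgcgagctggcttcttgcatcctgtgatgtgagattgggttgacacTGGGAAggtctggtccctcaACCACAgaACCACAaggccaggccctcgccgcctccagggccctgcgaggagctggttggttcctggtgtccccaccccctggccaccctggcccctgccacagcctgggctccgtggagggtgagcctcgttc
The first of the 2 ACCACA matches lay 134 bases before the start, and 14.0% of all windows held at least 1 such match. The Batf window also held 4 matches, 2 of them to the Runx motif. The window of the other Runx3 start held none of the 8 motifs. The counts do not separate transcripts from the 2 starts.

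Runx1, the related factor that shares the DNA motif and the partner Cbfb with Runx3, gave a log2 ratio of Runx3 to Runx1 of 1.46 ± 0.18 (SD, n = 4) in control and 1.77 ± 0.12 (SD, n = 5) in DKO. The difference was 0.32, higher in 5 of 5 DKO libraries than in any control library (exact two-sided permutation test, p = 0.0159, adjusted over 6 ratios 0.0317). With 1 library left out it ranged from 0.26 to 0.38. This ratio rests on the same Runx3 counts as the fold change above and is not a separate measurement of it. When both control replicates 1 and 3 were left out, the difference was 0.16 (exact permutation p = 0.0952, the smallest p that design allows). With all libraries the groups came close, with control replicate 2 at 1.64 and DKO replicate 2 at 1.67. Of 5 genes tied to Runx3 and the CD8 lineage (Cd8a, Cd8b1, Itgae, Zbtb7b and Cd4), 2 fell and none rose. Cd8b1, the CD8 beta chain, fell from 2247 ± 280 CPM (SD, n = 4) to 1702 ± 129 CPM (SD, n = 5), a log2 fold change of -0.40 (edgeR adjusted p = 0.0428). Itgae, the integrin chain CD103, fell from 9.78 ± 1.03 to 5.87 ± 0.888 CPM (SD, n = 4 and 5), a log2 fold change of -0.74 (edgeR adjusted p = 0.0219). Of the 9 fits with 1 library left out, Cd8b1 stayed past the threshold only without control replicate 1 (highest edgeR adjusted p = 0.127). Itgae stayed without control replicate 1 or 3 and without DKO replicate 3 or 5, and was lost in the other 5 (highest edgeR adjusted p = 0.0693). Cd8a averaged 719 and 716 CPM.

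Id2 was lower on average in DKO and did not pass the test. Id2, on the - strand of chromosome 12 (25093799 to 25097140), binds E proteins and keeps them from DNA, which favours effector cell survival. It measured 3231, 2368, 2272 and 2503 CPM in control replicates 1 to 4 and 1931, 2291, 1936, 2264 and 1724 CPM in DKO replicates 1 to 5. Control replicate 1 was the highest library, and control replicate 3 lay below DKO replicate 2, so the groups overlapped. The log2 fold change was -0.35 (SE 0.12, 95% interval -0.61 to -0.09, edgeR adjusted p = 0.159), and without control replicate 1 it was -0.24 (edgeR adjusted p = 0.142). With 1 surrogate variable it was -0.29 (edgeR adjusted p = 0.0454), the only alternative run in which Id2 passed.

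The ratio of Id2 to Id3 separated the groups. Id3 is the related inhibitor associated with memory precursor cells. Id3 averaged 7.26 ± 1.99 CPM (SD, n = 4) in control and 11.2 ± 1.17 CPM (SD, n = 5) in DKO, a log2 fold change of 0.63 (edgeR adjusted p = 0.0963). The log2 ratio was 8.51 ± 0.23 (SD, n = 4) in control and 7.49 ± 0.23 (SD, n = 5) in DKO, or 367 against 182 CPM of Id2 for each CPM of Id3. It was lower in 5 of 5 DKO libraries than in any control library, a difference of -1.01 (exact two-sided permutation test, p = 0.0159, adjusted over 6 ratios 0.0317). With 1 library left out the difference ranged from -1.10 to -0.93. This ratio rests on the same Id2 and Id3 counts as the fold changes above and is not a separate measurement of either.

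The repressors Prdm1 and Zeb2 showed no difference past the test, and control replicate 1 was the lowest library for both. Prdm1, on the - strand of chromosome 10 (44437177 to 44528501), encodes Blimp-1, a zinc finger repressor of memory genes. Its values were 56.4, 121, 142 and 113 CPM in control replicates 1 to 4 and 125, 127, 131, 122 and 135 CPM in DKO replicates 1 to 5. The DKO values fell within the control range, and control replicate 1 was below every other library. The log2 fold change was 0.24 (95% interval -0.20 to 0.68, edgeR adjusted p = 0.609), and 0.016 without control replicate 1 (edgeR adjusted p = 0.940). Zeb2, on the - strand of chromosome 2 (44983632 to 45117395), is a repressor that acts with T-bet in terminal effector cells. It measured 225, 422, 474 and 345 CPM in control replicates 1 to 4 and 368, 350.1, 368, 365 and 411 CPM in DKO replicates 1 to 5. Its group means of 367 ± 108 (SD, n = 4) and 372 ± 22.7 CPM (SD, n = 5) differed by far less than the control spread. The log2 fold change was 0.022 (95% interval -0.35 to 0.39, edgeR adjusted p = 0.966), and -0.17 without control replicate 1 (edgeR adjusted p = 0.345). Zeb1, a relative that is usually opposed to Zeb2, gave a log2 ratio of Zeb2 to Zeb1 that differed by 0.14 (exact permutation p = 0.587, adjusted over 6 ratios 0.705). Bcl6, a repressor antagonistic to Blimp-1, gave a log2 ratio of Prdm1 to Bcl6 that differed by 0.36 (exact permutation p = 0.190, adjusted 0.286). In both ratios the groups overlapped.

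Bhlhe40, Batf and Rora did not differ past the test, with intervals that bound the difference closely. Bhlhe40, on the + strand of chromosome 6 (108660629 to 108666925), is a repressor of the basic helix-loop-helix family that sustains cytokine production. It measured 339.8, 433, 395 and 454 CPM in control replicates 1 to 4 and 448, 444, 415, 411 and 452 CPM in DKO replicates 1 to 5. Its log2 fold change was 0.098 (95% interval -0.10 to 0.29, edgeR adjusted p = 0.645). Batf, on the + strand of chromosome 12 (85686669 to 85709087), pairs with Jun proteins and Irf4 at composite sites. It measured 93.9, 71.7, 64.7 and 73.0 CPM in control replicates 1 to 4 and 72.3, 72.0, 69.3, 78.8 and 79.7 CPM in DKO replicates 1 to 5. Only control replicate 1 lay outside the narrow band of the other libraries. The log2 fold change of Batf was -0.027 (95% interval -0.26 to 0.21, edgeR adjusted p = 0.929), and Bach2, a repressor that competes with AP-1 factors, gave a log2 ratio of Batf to Bach2 that differed by -0.020 (exact permutation p = 0.984). Rora, on the + strand of chromosome 9 (68653786 to 69388246), encodes the nuclear receptor ROR-alpha. It measured 199, 207, 198 and 184 CPM in control replicates 1 to 4 and 199.8, 191, 196, 217 and 175 CPM in DKO replicates 1 to 5. The groups lay on top of each other, with a log2 fold change of -0.0084 (95% interval -0.18 to 0.16, edgeR adjusted p = 0.972).

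Ikzf2, on the - strand of chromosome 1 (69531214 to 69687245), encodes Helios, an Ikaros family factor best known from regulatory T cells. It was the least abundant of the 10, with 43 to 208 reads in a library. It measured 2.17, 0.753, 1.81 and 1.18 CPM in control replicates 1 to 4 and 2.04, 2.15, 3.17, 4.05 and 1.59 CPM in DKO replicates 1 to 5. The groups overlapped. The log2 fold change of 0.82 (SE 0.35, 95% interval 0.05 to 1.59) did not pass with edgeR (adjusted p = 0.279), while limma-voom gave an adjusted p of 0.0490. Foxp3 averaged 0.137 CPM over the control and 0.212 CPM over the DKO libraries, and its part in the Ikzf2 values was not tested.

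**Figure D3:**
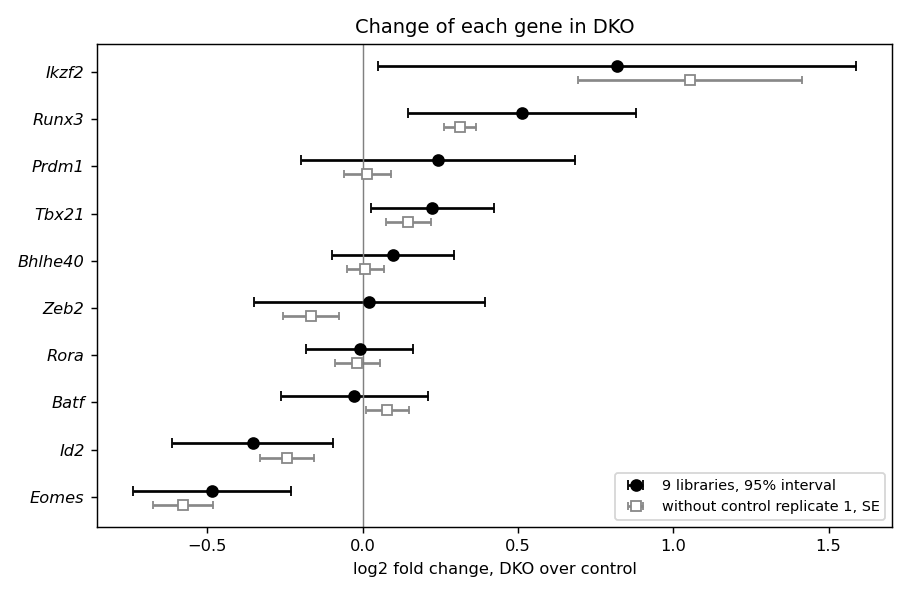
Log2 fold change of each gene, DKO over control (x axis), with its 95% interval from all 9 libraries (filled points) and with its standard error when control replicate 1 was left out (open squares). The interval excludes 0 for Ikzf2, Runx3, Tbx21, Id2 and Eomes before adjustment, and leaving out that library moved Prdm1 from 0.24 to 0.016 and Runx3 from 0.51 to 0.31.

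Several of these genes deviated in control replicate 1, a library whose deviations followed gene length. Relative to the other 3 controls, this library had a median log2 difference of 0.41 over the shortest of 5 equal bins of genes by summed exon length (up to 2137 bases), and of 0.12, -0.089, -0.26 and -0.43 over the following bins. The longest bin began at 7283 bases. Batf, of 1406 bases, was higher in it by 0.43, close to the median of its own bin. Prdm1 (5579 bases), Runx3 (5003 bases) and Zeb2 (19942 bases) were lower by 1.15, 0.95 and 0.87, each further than the median of its bin. Rora, of 13071 bases, differed by 0.02. Ikzf2 (11613 bases) was higher by 0.86 and Tbx21 (2488 bases) lower by 0.27, each opposite in sign to the median of its bin. Id2 was higher by 0.44, and Eomes and Bhlhe40 were lower by 0.35 and 0.33, each further than the median of its bin. Control replicate 3 showed the opposite trend, with medians from -0.20 in the shortest bin to 0.24 in the longest. When the trend with length was taken out of every library, the log2 fold change of Eomes was -0.51 (edgeR adjusted p = 0.0241) and that of Runx3 was 0.48 (edgeR adjusted p = 0.0804).

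**Figure D4:**
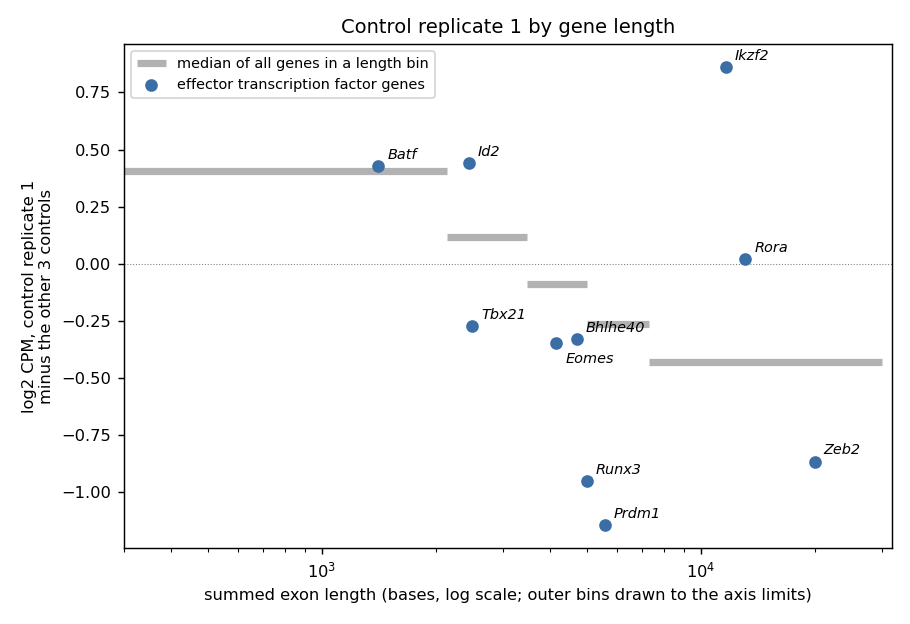
Difference in log2 CPM between control replicate 1 and the other 3 controls (y axis) against summed exon length (x axis, bases, log scale) for the 10 genes (points), with the median of all genes in each of 5 length bins (grey bars). The grey bars step down from 0.41 to -0.43, and Batf lies on its bar. Tbx21, Eomes, Prdm1, Zeb2, Bhlhe40 and Runx3 lie below theirs, and Id2, Rora and Ikzf2 lie above theirs.

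Levels were compared between genes per kilobase of exon. Control means were 1064 CPM per kilobase for Id2, 445 for Tbx21, 86.2 for Bhlhe40, 53.9 for Batf and 38.8 for Runx3, followed by 19.4 for Prdm1, 18.4 for Zeb2, 17.3 for Eomes, 15.1 for Rora and 0.127 for Ikzf2. Id2 stood at the 99.8th and Tbx21 at the 99.6th percentile of all tested genes on this scale, and Ikzf2 at percentile 10.1. Over the 9 libraries the ranges of Id2, Tbx21, Bhlhe40 and Batf followed each other without overlap, and Ikzf2 lay below Rora without overlap. From Batf through Runx3, Prdm1, Zeb2 and Eomes to Rora, each gene overlapped the next. Eomes exceeded Rora in 3 of 9 libraries. The exons of Zeb2 sum to 19942 bases over many isoforms, which lowers its level per kilobase.

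**Figure D5:**
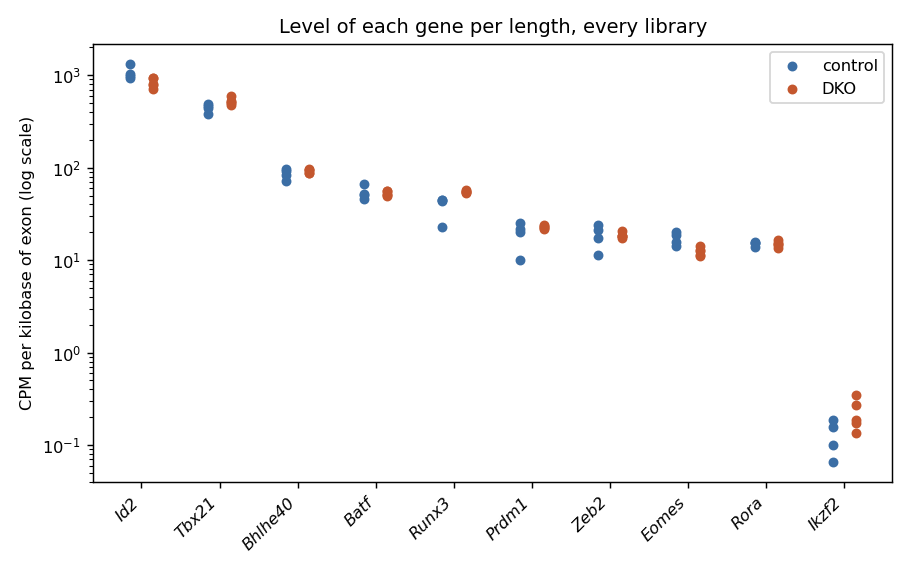
CPM per kilobase of summed exon (y axis, log scale) of each gene in every control and DKO library, 1 point per library, ordered by the control mean. Id2, Tbx21 and Bhlhe40 form separate steps, the genes from Batf to Rora overlap their neighbours, and Ikzf2 lies far below.

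Around the 10 genes, 6 of 82 tested genes (7.32%) in lists of upstream signals, partners, cofactors and known targets passed the test, and 12 of 15 cell cycle genes did. The lists, that of the cell cycle included, were chosen with earlier results of these data known, so their shares are descriptions and not tests. Over all lists 97 of 100 genes were tested, and 14 rose and 4 fell (18.6%), where 2.83% of all tested genes were called. Without 1 library these 18 calls became 28 when control replicate 1 was left out and 4 when control replicate 4 was. They became 8 for DKO replicate 1 or 3, 9 for control replicate 3 or DKO replicate 4, and 11 for DKO replicate 5. Of 17 upstream signalling genes, 1 rose, Il21r, and 1 fell. Il21r, the IL-21 receptor, which acts upstream of Prdm1 and Batf, went from 224 ± 24.3 to 305 ± 27.4 CPM (SD, n = 4 and 5), a log2 fold change of 0.44 (edgeR adjusted p = 0.0357), and with 1 library left out it stayed past the threshold in 2 of 9 fits, without control replicate 1 or DKO replicate 4 (highest 0.101). The median log2 fold change of the 17 was 0.16.

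Of 26 partners and relatives, 23 were tested and 1, Maf, fell. Maf, a basic leucine zipper factor linked to IL-10 expression, went from 2.58 ± 0.684 to 1.01 ± 0.175 CPM (SD, n = 4 and 5), a log2 fold change of -1.34 (edgeR adjusted p = 0.0117) that stayed in 9 of 9 fits with 1 library left out. Their median log2 fold change was 0.091. None of 12 cofactors passed with edgeR, DESeq2 or limma-voom, and 1 had an unadjusted p under 0.05 with edgeR. Of 13 effector genes that these factors are known to raise, 8 were lower and 5 higher, with a median log2 fold change of -0.20. Only Fasl passed with edgeR, while DESeq2 called 3 and limma-voom 4. Over all genes DESeq2 called 1038 and limma-voom 996, where edgeR called 422. An unadjusted p under 0.05 was reached with edgeR by 6 of 13, against 16.0% of all tested genes. CPM ranges did not overlap for 3, against 8.71%. Closest to passing was Prf1, which was lower in DKO (log2 fold change -0.40, edgeR adjusted p = 0.0516). Without control replicate 1 its edgeR adjusted p was 0.00691. Fasl, the Fas ligand, rose from 185 to 229.5 CPM, a log2 fold change of 0.31 (edgeR adjusted p = 0.0406), and with 1 library left out it stayed only without control replicate 1 (highest 0.122). None of 15 naive and memory genes that these factors restrain passed with edgeR (3 had an unadjusted p under 0.05). DESeq2 called 1 and limma-voom 2, beside their totals over all genes given above.

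Of 15 cell cycle genes, 12 rose and none fell, with a median log2 fold change of 1.12. The 12 were Mki67, Top2a, Cdk1, Ccnb2, Ccna2, Aurkb, Birc5, Plk1, Bub1, Cdc20, Mcm5 and Rrm2, which serve DNA replication and mitosis. Bub1, a spindle checkpoint kinase, had a log2 fold change of 2.14 (edgeR adjusted p = 0.0177), and Mcm5, a subunit of the replicative helicase, one of 0.77 (edgeR adjusted p = 0.0125). With control replicate 1 left out, 12 were called, with control replicates 2, 3 and 4 left out in turn 11, 5 and 2, and with DKO replicates 1 to 5 left out in turn 6, 11, 5, 6 and 8. Cdc20 and Mcm5 stayed past the threshold in 9 of these 9 fits, and Mki67 and Ccnb2 in 2. The part of cycling cells in the differences of Eomes, Runx3 and Tbx21 was not tested.

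The genes whose log2 CPM followed each factor most closely over the 9 libraries were sought among 10183 tested protein-coding genes, as a description, since the libraries share both the group difference and the deviation of control replicate 1. Pearson's r was highest for Prdm1 with Helz (0.996) and Clasp1 (0.993), and for Runx3 with Fem1a (0.994) and Kdm5c (0.993). Batf was most like Ndufa2 (0.989) and Polr2h (0.988), Id2 like Ctla2a (0.986) and Ms4a6b (0.978), and Tbx21 like Ercc6l (0.984) and Tmem104 (0.981). Zeb2 was most like Supt6 (0.980) and Golm1 (0.968), Bhlhe40 like Map3k15 (0.978) and Mre11a (0.963), and Eomes like Zc3hav1 (0.968) and Acadsb (0.959). The lowest values belonged to Ikzf2, with Isca1 (0.909) and Atf4 (0.894), and to Rora, with 2310061I04Rik (0.894) and Prrc2c (0.884).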

How the data were processed

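Polyadenylated RNA of 9 libraries was converted with a SMART-Seq kit and a Nextera library kit, per the labels' protocols. As deposited by the authors, the values are whole read counts per gene, made with STAR 2.7.8a, after Trim Galore 0.6.0 on mm10, per the submitters' processing notes. The annotation release is not given in the sources used here, and identifiers were matched to GENCODE M21 without their version. Reads outside genes stayed out of library sizes: 10.3% to 16.7% were unmapped, 5.80% to 6.79% multimapping, 4.01% to 5.20% outside features and 4.97% to 5.31% ambiguous. The unstranded column was used, as the strand columns held near-equal shares (49.9% to 50.1%).

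Counts were tested with edgeR 4.0.16 (R 4.3.3; TMM, filterByExpr with a minimum count of 10, robust quasi-likelihood test, 14918 genes, Benjamini-Hochberg at 0.05). The scripts were tested on simulated data. CPM used TMM-scaled library sizes. Ratios used exact two-sided permutation tests over all relabellings of the libraries. Alternatives used DESeq2 1.42.0, limma 3.58.1 (voom) and sva 3.50.0, other filters and scalings, strand columns, a replicate block and libraries left out. Removal of control replicates 1 and 3 together and of the length trend were chosen after seeing the data. Promoter windows came from RefSeq (GRCm38.p6), with entries for 8 of the 10 genes. The named genes are the 10 factors, the targeted genes, list genes past the threshold, the partner in each ratio and the closest 2 genes by Pearson's r. A listed gene past the threshold is not reported here. The genes and lists were chosen with earlier results of these data known.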

Additional observations from a re-analysis of the deposited data

Results flagged for a closer look

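Runx3 in control replicate 1, at 114 CPM, lay far from the other 3 controls, which were between 216 and 223 CPM. Its gap to the nearest control took up 0.938 of the whole control range, more than Dixon's test allows for 4 samples. Of 32 groups examined, made of the 10 genes and 6 ratios in control and in DKO, this was the only one, and chance marks about 1 in 20 such groups. This library also stood apart on the first principal component and in its unmapped reads, and the part of these in the Runx3 value was not tested.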

How the results depend on the processing

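The 422 called genes became 1248 with 1 surrogate variable, 1038 with DESeq2, 996 with limma-voom and 63 with the replicate number as a block, and 179 to 749 with 1 library left out. In the simulated data, which held no outlying library, 19.1% of DESeq2's calls were false. The 1 called factor (Eomes) became 3 with a surrogate variable (Eomes, Id2 and Runx3) and 3 with limma-voom (Eomes, Runx3 and Ikzf2). The count was 2 without control replicates 1 and 3, and 0 to 2 with 1 library left out. It was 0 with DESeq2 size factors, without a filter or with the replicate block. Eomes then had an adjusted p of 0.0512 with DESeq2 size factors, 0.0607 without a filter and 0.203 with the block, and its log2 fold change stayed negative under every alternative run. The 18 called list genes became 32 with a surrogate variable and 1 with the replicate block, and 4 to 28 with 1 library left out. The block used numbers 1 to 4. Deviations from the group means correlated between -0.117 and 0.012 for same-numbered libraries. On this measure 0 of 4 controls correlated best with its own number, so the numbers were not taken as pairs. Factors without overlap numbered 5 without control replicates 1 and 3 and 2 to 4 with 1 library left out. Leaving out libraries can only keep or raise this count, and the share of all genes was not computed there. The 3 called ratios became 0 without control replicates 1 and 3, where the smallest p the design allows is 0.0952, and 0 with any 1 library left out, where each was at the smallest p allowed (0.0286 or 0.0357; adjusted 0.0571 or 0.0714), so neither count bears on stability. Directions reversed only for small differences. Zeb2 gave -0.026 with a surrogate variable, -0.11 with limma-voom, -0.057 without control replicates 1 and 3, -0.014 with the length trend removed and -0.17 to 0.17 with 1 library left out. Batf gave 0.038, 0.033, 0.027 and 0.052 under these 4 settings and -0.095 to 0.079. Rora gave 0.025 with the block, 0.00058 with summed strand columns and -0.049 to 0.026. Bhlhe40 gave -0.046 without control replicates 1 and 3. The log2 ratio of Zeb2 to Zeb1 differed by -0.0085 to 0.21 with 1 library left out, and that of Batf to Bach2 by -0.20 to 0.17 and by 0.0033 without control replicates 1 and 3. For the other changes the cause was not tested. Ikzf2 rests on the fewest reads, 43 to 208 in a library.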

Other observations

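Counting called genes, 4 of the 17 upstream signalling genes and 4 of the 23 tested partners had CPM ranges that did not overlap between the groups, where 8.71% of all tested genes did not. The genes below were chosen after their values were seen. The IL-12 receptor chain gene Il12rb1, whose signal raises Tbx21, had a log2 fold change of 0.55 (edgeR adjusted p = 0.0638). Irf4, the partner of Batf, had a log2 fold change of 0.53 (edgeR adjusted p = 0.0752). Neither passed the threshold.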
